A study of Mus musculus with 4 samples.

Results

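Histone genes were examined in E14 cells, a mouse embryonic stem cell (mESC) line, with and without Npac, a reader of H3K36me3 whose gene is listed as Glyr1. They were defined as the protein-coding genes whose symbols begin with H1f, H2ac, H2bc, H3c, H4c, H2az, H2ax, H3f or Macroh2a, which gave 77 of the 56748 genes counted. Of these, 64 were classed by symbol alone as replication-dependent genes (H1f1 to H1f6 and the H2ac, H2bc, H3c and H4c genes). The other 13 were classed as variant genes (H1f0, H1f7, H1f8, H1f9, H1f10, H2ax, H2az1, H2az2, H3f3a, H3f3b, H3f4, Macroh2a1 and Macroh2a2). Whether each gene behaves as its class does was not checked. The WT group holds 2 libraries of unedited E14 cells (WT1 and WT2), and the Npac KO group holds 1 library from each of 2 knockout lines (KO1 and KO2). The lines were raised from colonies picked after electroporation of gRNA and Cas9 plasmids and puromycin selection, so each line stands for a clone, and no source says whether the WT cells went through the same steps. All cells grew without feeders in serum medium with LIF. No source says that WT1 and WT2 came from separate cultures, so p-values measure the spread between these libraries, which may be technical.

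Histones package DNA into nucleosomes, with a core of H2A, H2B, H3 and H4 and a linker histone H1 outside it. Replication-dependent histone genes lie in clusters, are transcribed in S phase, and give mRNAs that as a rule end in a stem-loop bound by Slbp and not in a poly(A) tail. Variant histone genes stand alone, are expressed through the cell cycle and give polyadenylated mRNAs, and their proteins replace the canonical ones at particular places, such as H3.3 in transcribed genes and macroH2A in silent chromatin.

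The stem-loop is shown because it sets the classes of histone genes apart. In the GENCODE M21 transcripts (GRCm38), the motif GGNNCTTNTNAGNGCC, read on the transcript strand, was found in 41 of the 64 replication-dependent genes and in 1 of the 13 variant genes, H2ax. It was also found in 40 of 55373 other genes, or 0.072%. For the 23 replication-dependent genes without it, this says only that the letters are not in the annotated transcripts. Some of these genes are short in the annotation, such as H4c12 at 312 bases. The 41 genes carried 7 distinct forms, of which the most common was shared by 24 genes, and H2ax carried a form of its own. The forms of the members named in the results are given here 5′ to 3′, with the paired stem in capitals and the loop in lower case.
H1f2, H2bc11 and H2ac23: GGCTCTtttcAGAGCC
H3c3: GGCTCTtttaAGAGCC
H4c9: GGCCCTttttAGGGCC
H2ax: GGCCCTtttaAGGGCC

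The annotated transcripts differed in how far they run past the stem-loop. In H2bc11 the transcript ends 23 bases after it, in H2ac23 31 bases and in H3c3 74 bases. In H4c9 it goes on for 330 bases, in H2ax for 822 bases and in H1f2 for 840 bases, and in these 3 genes the added stretch holds a poly(A) signal, AATAAA or ATTAAA. No stem-loop was found in the annotated transcripts of H2bc4, H2bc23 and H2bc21, which says only that these letters are not in them. Whether the libraries were selected for poly(A) RNA is not given in the sources used here.

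Promoters of the histone genes share motifs too. In the RefSeq promoter windows (GRCm38.p6, 250 bases before to 50 bases after the start site, both strands searched), CCAAT stood in 86.44% of 59 windows of replication-dependent genes, in 63.64% of 11 windows of variant genes and in 37.41% of all 32851 windows. The letters TATAAA stood in 57.63%, 18.18% and 13.62% of them, TTTCGCGC, an E2F site, in 15.25%, 0 and 0.32%, and AAACACA, the H1 box of linker histone promoters, in 15.25%, 9.09% and 7.18%. The 250 bases before the start site are given for H3f3b, the member with most reads in every library, and for H1f2, the replication-dependent H1 gene with most reads, with CCAAT and AAACACA in capitals. The stretch of H3f3b (chr11:116024505-116024754, minus strand) holds CCAAT 4 times, and that of H1f2 (chr13:23738557-23738806, plus strand) holds CCAAT and AAACACA once each. The window of H1f0 holds none of these motifs, and H2ax has no entry among the windows.
H3f3b: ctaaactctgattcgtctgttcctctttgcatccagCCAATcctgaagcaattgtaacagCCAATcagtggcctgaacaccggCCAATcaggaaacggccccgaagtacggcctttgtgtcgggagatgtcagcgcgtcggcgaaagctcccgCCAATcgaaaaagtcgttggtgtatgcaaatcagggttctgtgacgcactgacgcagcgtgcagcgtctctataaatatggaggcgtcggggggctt
H1f2: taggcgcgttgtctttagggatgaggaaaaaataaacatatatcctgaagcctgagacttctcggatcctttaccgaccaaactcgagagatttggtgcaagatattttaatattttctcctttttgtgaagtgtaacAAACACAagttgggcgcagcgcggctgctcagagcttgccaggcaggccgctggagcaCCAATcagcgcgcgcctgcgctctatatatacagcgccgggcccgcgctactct

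The counts summed to between 15850805 and 16965120 per library, and 18157 genes passed edgeR's filter on low counts, among them 33 histone genes (24 replication-dependent and 9 variant). Glyr1 itself had 3961 and 3115 reads in WT1 and WT2 and 744 and 888 reads in KO1 and KO2, a log2 fold change of -2.14 ± 0.23 (standard error, edgeR quasi-likelihood adjusted p = 0.00174). All 7 ES cell markers examined were read in every library, with a summed level of 5615 to 6926 CPM (counts scaled to the library size, with TMM normalization) in WT cells and 4485 to 4678 CPM in KO cells, and of them Zfp42 fell. Of the other markers, the trophoblast list summed to 48.5 to 61.9 CPM in WT cells and 150 to 174 CPM in KO cells, with 1 of its 4 tested genes called (Tfap2c, up). Tfap2c alone took 50.7 and 31.7 CPM in WT1 and WT2 and 155 and 134 CPM in KO1 and KO2. Without it the trophoblast sums overlapped between the groups. The primitive endoderm list summed to 28.2 to 29.3 CPM in WT cells and 14.8 to 21.7 CPM in KO cells, with Sox7 down and Foxa2 at no more than 2 reads. Sox7 alone took 17.9 and 9.27 CPM in WT1 and WT2 and 0.257 and 0.924 CPM in KO1 and KO2. Without it the primitive endoderm sums overlapped too. The fibroblast list summed to 35.8 to 59.0 CPM in WT cells and 45.1 to 50.6 CPM in KO cells, with Col1a1 up and Col3a1 and Dcn at 0. The part of these markers in the results was not tested. These are bulk samples, in which fewer cells of a type and less RNA per cell cannot be told apart.

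Most variant histone mRNAs were lower in Npac KO cells. Of the 9 variant genes tested, 6 fell (H1f0, H1f10, H2ax, H3f3a, H3f3b and Macroh2a2), 1 rose (Macroh2a1) and 2 were not called (H2az1 and H2az2). A gene was called where the p adjusted over all genes tested by the Benjamini-Hochberg method was under 0.05 and the fold change was over 1.5. By this rule 10.7% of all genes tested fell and 11% rose, against 66.7% and 11.1% of the variant genes tested. The median log2 fold change was -1.35 over the 9 genes and 0.0015 over all genes tested. In CPM, both KO libraries lay below both WT libraries in 6 of the 9 genes and above them in 1. Over all genes tested these shares were 32.5% and 33.2%. The 13 variant genes together took 4806 and 4783 CPM in WT1 and WT2 and 2545 and 2007 CPM in KO1 and KO2. With each KO line set alone against the WT pair, H3f3b, H1f0, H2ax and H1f10 fell in both, where 3.34% of all genes fell in KO1 and 2.34% in KO2. The remaining 4 variant genes (H1f7, H1f8, H1f9 and H3f4) had fewer than 10 reads in every library and were not tested. Genes that overlap H3f3a, H1f0 and Macroh2a1 on the opposite strand had at most 78 reads in any library.

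**Figure D1:**
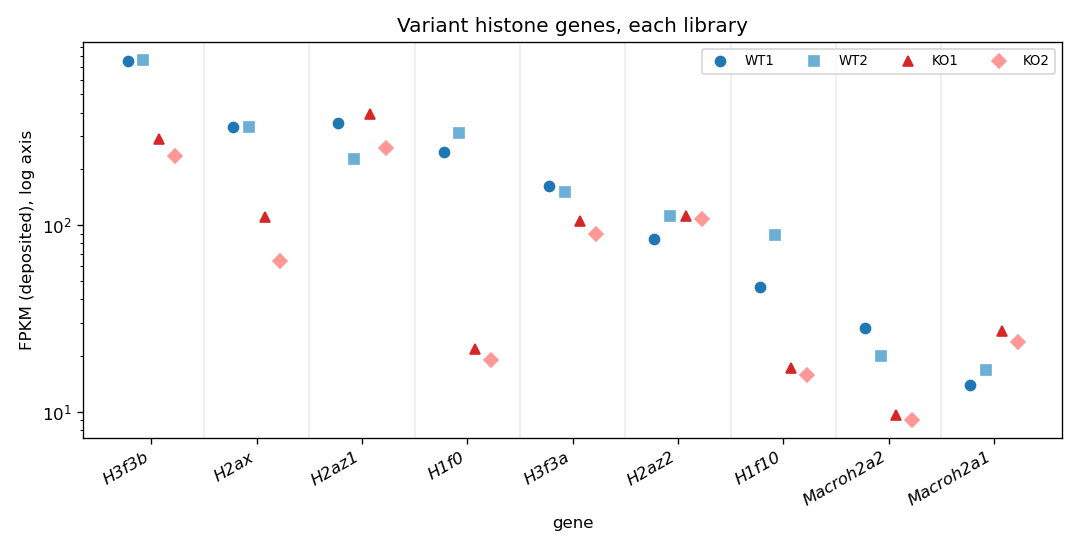
Deposited FPKM of the 9 variant histone genes tested, on a log axis, with 1 point for each library (WT1, WT2, KO1 and KO2). Both KO libraries lie below both WT libraries in 6 genes and above them in Macroh2a1, and the libraries overlap in H2az1 and H2az2. Of all genes tested, 32.5% lie below and 33.2% above in the same way in TMM-normalized CPM.

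H1f0, the replacement linker histone H1.0 that accumulates in differentiated and non-dividing cells, showed the largest fall among the histone genes. It lies on chromosome 15 (ENSMUSG00000096210, 78912650 to 78914704 in the files). It had 7746 and 11314 reads in WT1 and WT2 and 697 and 689 reads in KO1 and KO2, so both KO libraries were far below both WT libraries. The mean was 577 ± 99.3 CPM in WT and 42.3 ± 3.56 CPM in KO cells (SD, n = 2 each), or 13.6-fold lower. The log2 fold change was -3.77 ± 0.22 (standard error, edgeR quasi-likelihood adjusted p = 0.000171). It was -3.69 in KO1 and -3.86 in KO2, and it stayed between -3.97 and -3.58 with each library left out in turn.

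H1f10, the linker histone H1.10 (once named H1x), fell as well. It was read 874 and 1890 times in WT1 and WT2 against 326 and 336 times in KO1 and KO2 (chromosome 6). The WT libraries differed from each other by more than the KO libraries did, but the groups did not overlap. The mean went from 82.7 ± 36.0 to 20.2 ± 1.10 CPM (SD, n = 2 each), a log2 fold change of -2.03 ± 0.31 (standard error, edgeR quasi-likelihood adjusted p = 0.00552). Gm5577, a gene on the opposite strand that overlaps H1f10 in the files, went from 37 and 56 reads to 92 and 66 reads, and whether the counting used strand is not stated.

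The make-up of the counted H1 reads differed between the groups. In these the replication-dependent H1 genes together had 180 and 241 reads in WT1 and WT2 and 113 and 112 reads in KO1 and KO2. Whether mRNAs without a poly(A) tail were captured is not given, so the shares describe the reads counted and not all H1 mRNA. Per length, on the deposited FPKM, H1f0 made up 81.8% and 76.1% of the sum over all H1 genes in WT1 and WT2, and 47.7% and 45.9% in KO1 and KO2. H1f10 made up 15.6% and 21.5% in WT1 and WT2, against 37.7% and 37.8% in KO1 and KO2. In reads, the share of H1f0 was 88.0% (Wilson 95% interval 87.3% to 88.7%) in WT1 and 84.1% (83.5% to 84.7%) in WT2. In KO1 it was 60.8% (58.0% to 63.6%) and in KO2 60.4% (57.5% to 63.2%). These intervals cover counting error only.

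**Figure D2:**
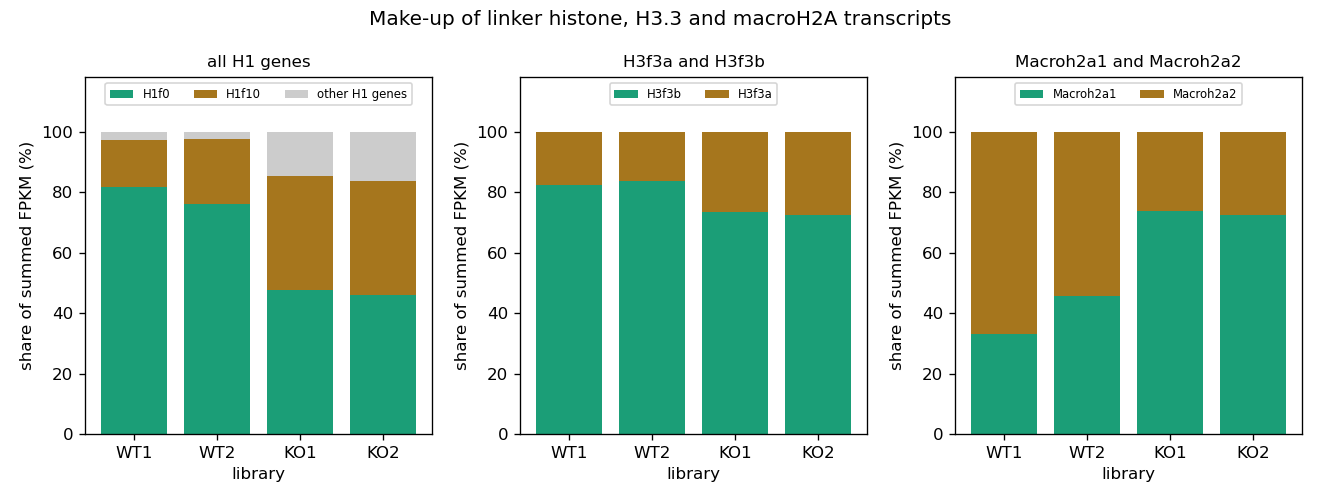
Share of the summed deposited FPKM (%) taken by single genes in each library, for all H1 genes (left), the H3.3 genes (middle) and the macroH2A genes (right). H1f0 goes from 81.8% and 76.1% in WT1 and WT2 to 47.7% and 45.9% in KO1 and KO2, and Macroh2a1 from 33.2% and 45.7% to 73.8% and 72.4%. The shares describe the reads counted, and mRNAs without a poly(A) tail may be missing from them.

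Both H3.3 genes fell. H3f3a and H3f3b encode the same protein, the H3 variant placed by Hira in transcribed genes and by Atrx and Daxx at telomeres and repeats. H3f3b (ENSMUSG00000016559, chromosome 11, 115912738 to 115918788 in the files) had the highest FPKM of all histone genes in WT cells, 760 ± 1.83, and 261 ± 39.1 in KO cells (SD, n = 2 each), where H2az1 was higher. Its reads were 34722 and 39930 in WT1 and WT2 and 13396 and 12234 in KO1 and KO2, and KO1 and KO2 each had fewer than either WT library. The log2 fold change was -1.54 ± 0.20 (standard error, edgeR quasi-likelihood adjusted p = 0.00360). Genes on chromosome 11 as a group were higher in the KO libraries (median log2 fold change 0.50 over 1455 genes), and with the median of each chromosome removed the value for H3f3b was -2.00.

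H3f3a (ENSMUSG00000060743, chromosome 1) fell by less, from 8768 and 9240 reads to 5717 and 5504 reads. The groups did not overlap. Its mean went from 551 ± 32.0 to 343 ± 35.2 CPM (SD, n = 2 each), a log2 fold change of -0.69 ± 0.19 (standard error, edgeR quasi-likelihood adjusted p = 0.0369). Without KO1 the adjusted p was 0.168 (log2 fold change -0.81) and without KO2 it was 0.309 (-0.58) by the same test. Summed, the H3.3 genes took 2848 and 2814 CPM in the WT libraries and 1230 and 1025 CPM in the KO libraries. H3f3b held 79.8% and 81.2% of their reads in WT1 and WT2 and 70.1% and 69.0% in KO1 and KO2.

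Of the H2A variants, H2ax fell and the H2A.Z genes were not called. H2ax encodes H2A.X, which is phosphorylated around DNA double-strand breaks, and is the variant gene that carries the stem-loop shown above. It had 7132 and 8123 reads in WT1 and WT2 and 2392 and 1569 reads in KO1 and KO2 (ENSMUSG00000049932, chromosome 9, 44245991 to 44247374 in the files). The WT libraries lay close together and both KO libraries were lower, KO2 more than KO1. The mean went from 466 ± 1.46 to 122 ± 44.7 CPM (SD, n = 2 each), a log2 fold change of -1.93 ± 0.27 (standard error, edgeR quasi-likelihood adjusted p = 0.00430). The value was -1.60 in KO1 and -2.36 in KO2.

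H2az1 and H2az2 encode H2A.Z, the variant found at promoters beside the transcription start. H2az1 was read 9651 and 7091 times in WT1 and WT2 against 10951 and 8097 times in KO1 and KO2, so the groups overlapped. Its log2 fold change was 0.18 ± 0.28 (standard error, edgeR quasi-likelihood adjusted p = 0.688). H2az2 was read 2112 and 3206 times in WT1 and WT2 against 2863 and 3101 times in KO1 and KO2, and these overlapped too. Its log2 fold change was also 0.18 ± 0.20 (standard error, edgeR quasi-likelihood adjusted p = 0.560), and it was -0.29, likewise not called, with the chromosome medians removed (H2az2 lies on chromosome 11). In WT cells H2ax and H2az1 had similar FPKM, 334 ± 1.48 and 290 ± 89.7 (SD, n = 2 each). In KO cells these were 87.6 ± 32.9 for H2ax and 327 ± 96.6 for H2az1. Among the reads of all H2A genes, macroH2A included, H2ax took 33.4% and 38.2% in WT1 and WT2 and 12.2% and 9.77% in KO1 and KO2. These shares too describe the reads counted and not all H2A mRNA.

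The macroH2A genes moved in opposite directions. MacroH2A is an H2A with a large macro domain, known from the inactive X chromosome and from silent genes. Macroh2a1 had 1453 and 2005 reads in WT1 and WT2 and 2883 and 2853 reads in KO1 and KO2 (ENSMUSG00000015937, chromosome 13), more in each KO library than in either WT library. The mean went from 105 ± 13.9 to 175 ± 14.6 CPM (SD, n = 2 each), a log2 fold change of 0.74 ± 0.19 (standard error, edgeR quasi-likelihood adjusted p = 0.0297). This call was lost without WT1, where the log2 fold change was 0.58, and without KO1 (0.63, adjusted p = 0.270) or KO2 (0.82, adjusted p = 0.148) by the same test.

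Macroh2a2 was read 935 and 762 times in WT1 and WT2 against 327 and 347 times in KO1 and KO2 (ENSMUSG00000020086, chromosome 10), again without overlap. The mean went from 52.4 ± 12.5 to 20.5 ± 0.699 CPM (SD, n = 2 each), a log2 fold change of -1.35 ± 0.23 (standard error, edgeR quasi-likelihood adjusted p = 0.00850). Without KO2 the adjusted p was 0.0669 by the same test, with a log2 fold change of -1.32. Aifm2, which overlaps Macroh2a2 by 596 bases on the opposite strand, was read 609 and 817 times in WT1 and WT2 against 373 and 540 times in KO1 and KO2, and its part in the fall was not tested. Per length, Macroh2a1 made up 33.2% and 45.7% of the summed FPKM of both genes in WT1 and WT2 and 73.8% and 72.4% in KO1 and KO2. Macroh2a2 thus had the higher FPKM in both WT libraries and Macroh2a1 in both KO libraries.

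Replication-dependent histone genes were read at a low level in all libraries. The 64 genes together had 851 and 970 reads in WT1 and WT2 and 757 and 694 reads in KO1 and KO2, which is between 0.00409% and 0.00585% of a library. No reads were found for 9 of them in any library, and 32 had fewer than 10 reads in every library, those 9 included. Another 8, with 10 to 19 reads in their highest library, did not pass the filter. These genes are near-identical copies in part: 51 of the 64 share at least 1 stretch of 150 bases, the read length, with another gene, and 21 share over 50% of their stretches. How reads that fit several copies, or RNA without a poly(A) tail, were handled is not given in the sources used here. The part of either in the low counts was not tested. Of the 9 genes without reads, 5 were among the 21, while H2ac21 shared no such stretch.

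Among the 24 genes that passed the filter, 3 fell (H1f2, H2bc4 and H2bc23), none rose and 21 were not called by edgeR's test. The share that fell was 12.5%, beside 10.7% of all genes tested. At an unadjusted p under 0.05 with the same fold change 4 fell and 3 rose, or 16.7% and 12.5%, where 17.0% and 16.9% of all genes tested did so. With no filter on low counts 3 of 55 rose, where 2862 of all 32685 genes did so. With limma on the FPKM values 3 rose, and the share of all genes that rose in that fit is not given here. DESeq2 called none of 55 higher and 2 lower, where it called 2010 and 2073 of all 32685 genes. With a library left out these counts changed, as did those over all genes tested. The median log2 fold change was -0.29, with a range from -3.28 to 1.65. Both KO libraries lay below both WT libraries in 9 genes and above them in 5, where 32.5% and 33.2% of all genes tested did so. With each KO line alone against the WT pair, none of the 24 genes was called, where 3.83% of all genes rose in KO1 and 3.10% in KO2.

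**Figure D3:**
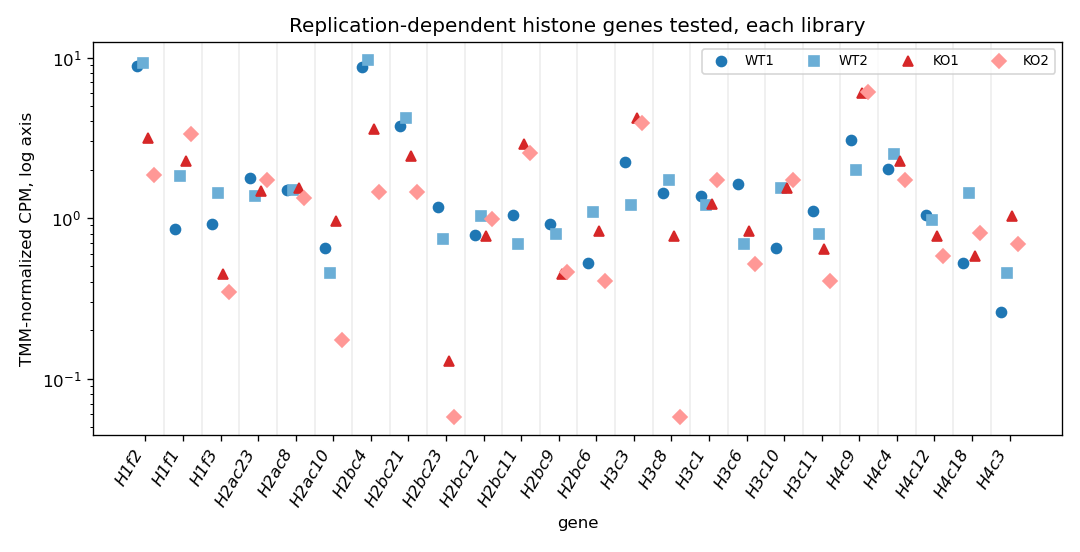
TMM-normalized CPM of the 24 replication-dependent histone genes tested, on a log axis, ordered by class (H1, H2A, H2B, H3 and H4), with 1 point for each library. H1f2 and H2bc4 stand highest in the WT libraries and lower in both KO libraries, while H4c9 and H3c3 are higher in both KO libraries.

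The linker histone H1f2, a replication-dependent H1 that shares no 150-base stretch with another gene, had 135 and 161 reads in WT1 and WT2 and 49 and 32 reads in KO1 and KO2. Both KO libraries were lower. Its mean went from 9.03 ± 0.265 to 2.50 ± 0.922 CPM (SD, n = 2 each), a log2 fold change of -1.85 ± 0.41 (standard error, edgeR quasi-likelihood adjusted p = 0.0183). Without KO1 the adjusted p was 0.0575 (log2 fold change -2.30) and without KO2 it was 0.160 (-1.52) by the same test. H1f3, another H1 of the cluster, was read 14 and 25 times in WT1 and WT2 against 7 and 6 times in KO1 and KO2 and was not called (log2 fold change -1.55, edgeR quasi-likelihood adjusted p = 0.0990). H1f1, read 13 and 32 times in WT1 and WT2 against 35 and 58 times in KO1 and KO2, was not called either (1.05, adjusted p = 0.201 by the same test).

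Of the H2B genes, H2bc4 had 133 and 168 reads in WT1 and WT2 and 56 and 25 reads in KO1 and KO2, again without overlap. Its mean went from 9.16 ± 0.641 to 2.52 ± 1.53 CPM (SD, n = 2 each), a log2 fold change of -1.86 ± 0.48 (standard error, edgeR quasi-likelihood adjusted p = 0.0316). Without KO1 it was -2.67 (adjusted p = 0.0342) and without KO2 it was -1.34 (adjusted p = 0.203) by the same test, the latter not called. H2bc23 was read 18 and 13 times in WT1 and WT2 against 2 and 1 times in KO1 and KO2 (log2 fold change -3.28 ± 0.77, standard error, edgeR quasi-likelihood adjusted p = 0.0229). The ratio of WT to KO reads was 10.4, with a counting interval from 3.23 to 53.0. The call was lost without KO1 (log2 fold change -3.90, adjusted p = 0.101), without KO2 (-2.82, 0.196) and with DESeq2 (-3.38, 0.0934). It was also lost with limma on log2(FPKM + 1), where the value was -0.49, and the gene did not pass a filter of at least 10 counts in every library. Of the 150-base stretches of H2bc23, 92.36% also occur in other genes, so its reads are uncertain. In H2bc11 the order was the opposite, read 16 and 12 times in WT1 and WT2 against 45 and 44 times in KO1 and KO2, but the test did not call it (log2 fold change 1.65, edgeR quasi-likelihood adjusted p = 0.0534).

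In the H2A, H3 and H4 classes no gene was called by edgeR, while 1 H3 gene and 1 H4 gene were higher at an unadjusted p under 0.05 with a fold change over 1.5. H2ac23, the H2A gene with most reads, had 27 and 24 reads in WT1 and WT2 and 23 and 30 reads in KO1 and KO2, and the groups overlapped. Its log2 fold change was 0.04 ± 0.49 (standard error, edgeR quasi-likelihood adjusted p = 0.968). Its reads are uncertain like those of H2bc23, since 91.54% of its 150-base stretches also occur in other genes. H4c9, the H4 gene with most reads, was read 47 and 35 times in WT1 and WT2 against 93 and 105 times in KO1 and KO2, without overlap. Its log2 fold change was 1.25 ± 0.41 (standard error, edgeR quasi-likelihood adjusted p = 0.0651). Without WT1 it was 1.56 and called (adjusted p = 0.0156), and it was not called without WT2 (0.97, adjusted p = 0.0782), KO1 (adjusted p = 0.319) or KO2 (adjusted p = 0.295) by the same test. H3c3, the H3 gene with most reads, went the same way, read 34 and 21 times in WT1 and WT2 against 65 and 68 times in KO1 and KO2. Its log2 fold change was 1.24 ± 0.48 (standard error, edgeR quasi-likelihood adjusted p = 0.10). Without WT1 it was 1.72 and called (adjusted p = 0.0203), and it was not called without WT2 (0.86, adjusted p = 0.168), KO1 (adjusted p = 0.407) or KO2 (adjusted p = 0.333) by the same test. H3c8 was read 22 and 30 times in WT1 and WT2 against 12 and 1 times in KO1 and KO2, and was not called (-1.94, edgeR quasi-likelihood adjusted p = 0.144). H1f3, H1f1, H2bc11 and H3c8 were chosen after their values were seen.

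Summed by class, the replication-dependent H1 genes took 11.8 and 13.8 CPM in WT1 and WT2 and 7.27 and 6.47 CPM in KO1 and KO2, and the H2B genes 18.9 and 19.8 CPM and 12.6 and 8.26 CPM. The H4 genes took 9.23 and 9.27 CPM in the WT libraries and 11.8 and 11.4 CPM in the KO libraries. Single genes weighed on these sums. With H4c9 left out, the H4 sum was lower, not higher, in both KO libraries. With H1f2 left out, the sum of the replication-dependent H1 genes overlapped between the groups. The H2B sum stayed lower in both KO libraries with H2bc4 left out. The H2A genes (6.35, 4.87, 7.40 and 5.20 CPM in WT1, WT2, KO1 and KO2) and the H3 genes (9.49, 7.78, 9.65 and 8.72 CPM) overlapped between the groups. The sum over all 64 genes was 55.7 and 55.5 CPM in the WT libraries and 48.7 and 40.1 CPM in the KO libraries, a log2 ratio of means of -0.33. Without H1f2 and H2bc4 this sum overlapped between the groups. The 5 genes with most reads held 47.7% and 47.2% of these reads in WT1 and WT2 and 39.8% and 36.7% in KO1 and KO2. The sum per length did not separate the groups, at 67.6 and 66.0 FPKM in the WT libraries and 70.6 and 60.8 FPKM in the KO libraries.

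**Figure D4:**
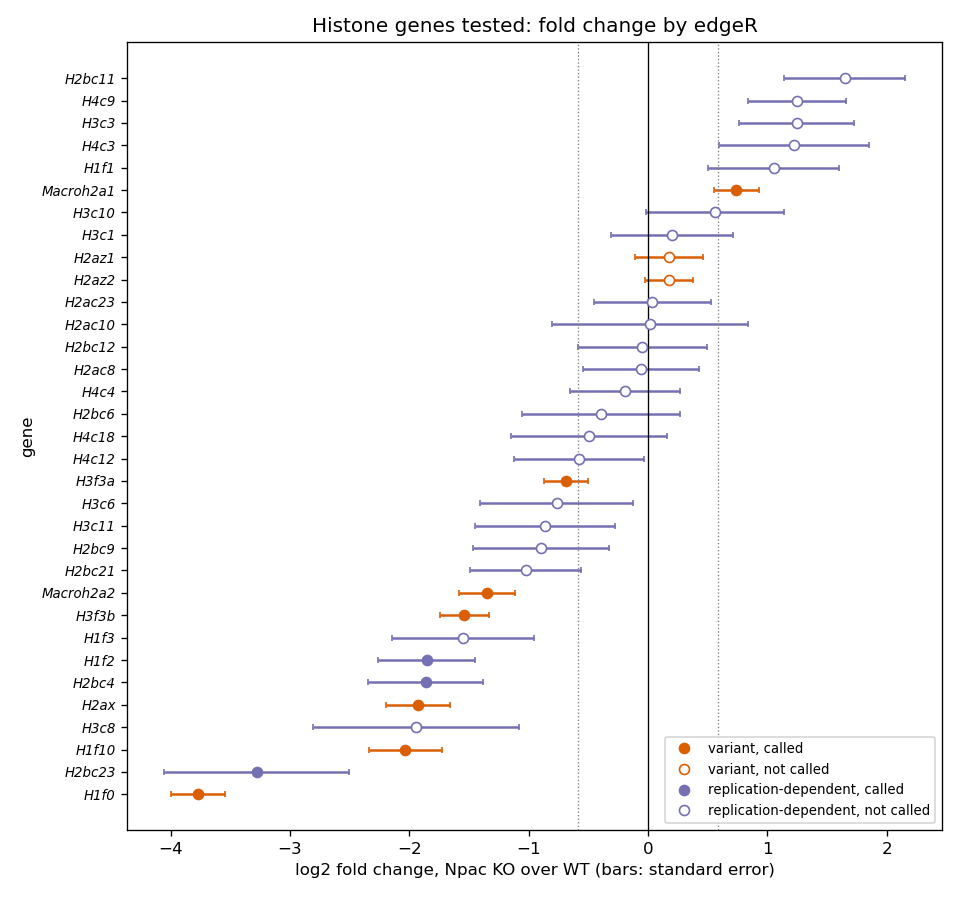
Log2 fold change of Npac KO over WT with its standard error by edgeR for the 33 histone genes tested, ordered by value, with filled points for called genes. The dotted lines mark a fold change of 1.5 in each direction, and the bars of the replication-dependent genes, which have few reads, are wider than those of the variant genes.

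By position, the replication-dependent genes fall into 3 groups. On chromosome 13, 23 genes lie between 21899933 and 22227846 in the coordinates of the files and 31 genes between 23715220 and 24118834. On chromosome 3, 10 genes lie between 96127181 and 96177448. In the first stretch of chromosome 13, which holds H4c9, H2bc11, H2ac23 and H2bc23, 9 genes were tested and 1 fell, with a median log2 fold change of -0.05. Its summed level was 14.3 and 13.1 CPM in WT1 and WT2 and 18.7 and 17.7 CPM in KO1 and KO2, higher in both KO libraries. In it the mean of H4c9 went from 2.54 to 6.03 CPM and that of H2bc11 from 0.867 to 2.72 CPM. Without H4c9 and H2bc11 the summed level of this stretch was lower, not higher, in both KO libraries. In the second stretch, which holds H1f2, H2bc4 and H3c3, 14 genes were tested and 2 fell, with a median of -0.29. Its summed level was 36.4 and 37.7 CPM in the WT libraries and 27.0 and 20.5 CPM in the KO libraries, lower in both KO libraries. In it the mean of H1f2 went from 9.03 to 2.50 CPM and that of H2bc4 from 9.16 to 2.52 CPM. Without H1f2 and H2bc4 the summed level of this stretch overlapped between the groups. The difference between these stretches was not tested. On chromosome 3, where 6 of the 10 genes had no reads, only H2bc21 was tested, read 57 and 73 times in WT1 and WT2 against 38 and 25 times in KO1 and KO2, and it was not called (log2 fold change -1.03, edgeR quasi-likelihood adjusted p = 0.148). The median over all tested genes was -0.06 on chromosome 13 and -0.12 on chromosome 3. Of all tested genes 12.7% fell on chromosome 13 and 12.6% on chromosome 3.

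Genes that make, process or carry histones were examined next, from lists of 37, 36 and 33 genes that were all tested. Of the 37 genes of histone mRNA synthesis and processing, 4 rose and none fell, with a median log2 fold change of 0.15. At an unadjusted p under 0.05 with the same fold change 6 rose, or 16.2%, and 0 fell, beside 16.9% and 17.0% of all genes tested. Slbp, which binds the stem-loop, was not called (1802 and 2144 reads in WT1 and WT2, 1701 and 2021 in KO1 and KO2, log2 fold change -0.09, edgeR quasi-likelihood adjusted p = 0.738). Neither was Npat, which activates the clusters on phosphorylation by cyclin E (-0.02, adjusted p = 0.969 by the same test), nor Casp8ap2, a part of the histone locus body (0.08, adjusted p = 0.845). The 4 that rose were Upf1, a helicase of histone mRNA decay (log2 fold change 1.30), Eri1, the nuclease that trims the stem-loop (1.15), Clp1, a pre-mRNA cleavage factor (0.98), and Ccne1, cyclin E1 (0.67), with adjusted p of 0.00515, 0.00766, 0.0152 and 0.0290 by edgeR's quasi-likelihood test. Upf1 and Eri1 lie on chromosome 8, where the median over all tested genes was 0.51.

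Of the 36 histone chaperones and partners, 3 rose and none fell, with a median log2 fold change of 0.23. At the unadjusted p 6 rose, or 16.7%, and 0 fell, beside the same 16.9% and 17.0%. The 3 were Hat1, the cytoplasmic H4 acetyltransferase (1.18, edgeR quasi-likelihood adjusted p = 0.00944), Npm1, nucleophosmin, on chromosome 11 (1.18, adjusted p = 0.0109), and Cenpa, the centromeric H3 (1.08, adjusted p = 0.0112). The chaperones of H3.3 were not called, with log2 fold changes of -0.07 for Hira (edgeR quasi-likelihood adjusted p = 0.824), -0.37 for Daxx (0.258) and 1.04 for Atrx (0.103). Atrx was read 4702 and 2104 times in WT1 and WT2 against 7941 and 6353 times in KO1 and KO2. Chaf1a, the large subunit of CAF-1, which deposits the canonical H3, was not called either (-0.35, adjusted p = 0.224 by the same test).

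Of the 33 S-phase genes, 5 rose and 1 fell, with a median log2 fold change of 0.30. At the unadjusted p 6 rose, or 18.2%, and 1 fell, or 3.03%, beside the same 16.9% and 17.0%. Pold1 (0.98), Tk1 (0.94), Rrm2 (0.87), Cdc6 (0.79) and Cdt1 (0.70) rose, with adjusted p between 0.0126 and 0.0295 by edgeR's quasi-likelihood test. Tk1 and Cdc6 lie on chromosome 11 and Cdt1 on chromosome 8. Pola1, the catalytic subunit of DNA polymerase alpha, fell from 4208 and 3899 reads in WT1 and WT2 to 1172 and 1244 reads in KO1 and KO2 (log2 fold change -1.76, adjusted p = 0.00186 by the same test). The shares that rose in the lists, 10.8%, 8.33% and 15.2%, stand beside 11% of all genes tested, and the shares that fell, 0, 0 and 3.03%, beside 10.7%. In CPM, both KO libraries lay above both WT libraries in 16, 16 and 21 genes of the lists. They lay below them in 5, 7 and 5 genes. Over all genes tested 33.2% lay above and 32.5% below.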

How the data were processed

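RNA-seq of 2 WT and 2 Npac KO libraries of E14 cells was analysed. Per the sources, 150-base paired-end reads were mapped with HISAT (2.0.5 in the submitters' processing notes) and counted with featureCounts 1.5.0-p3. The authors deposited raw counts per gene and FPKM values, and the deposited FPKM equalled count over gene length over a library factor within 9.6e-06%. The notes name mm10, but no histone start in the files equals that of GRCm38, so coordinates are given as in the files, and sequences are placed on GRCm38. Library selection, strand and the handling of reads with several matches are not given in the sources used here.

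Counts were normalized by TMM and tested with edgeR 4.0.16 in R 4.3.3 (filterByExpr, quasi-likelihood test, 2 against 2), adjusted over 18157 genes by the Benjamini-Hochberg method, with the thresholds adjusted p under 0.05 and fold change over 1.5. The common biological coefficient of variation was 0.235. WT1 and WT2 differed by more than counting error (chi-square per gene 42.7), as did KO1 and KO2 (13.3). Each KO line alone was tested in a 3-group fit whose spread came from the WT pair. Shared 150-base stretches, motifs and stem-loops were found by exact matching in GENCODE M21 transcripts and RefSeq promoters.

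Named genes were Glyr1, replication-dependent genes past both thresholds, the one with most reads in each class, all tested variant genes, and list genes past both thresholds with Slbp, Npat, Casp8ap2, Hira, Daxx, Atrx and Chaf1a. The members and lists were chosen with earlier results of these data known. Alternatives were DESeq2 1.42.0, other normalizations and filters, a replicate block, limma 3.58.1 on FPKM, protein-coding genes only, removal of chromosome medians and leaving out each library.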

Additional observations from a re-analysis of the deposited data

How the results depend on the processing

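H3f3b, H3f3a, H1f0, H2ax, H1f10, Macroh2a1, Macroh2a2, H2bc4 and H1f2 kept their direction and their call in all 10 alternative fits to all libraries. With libraries left out in turn, H3f3b, H1f0, H2ax and H1f10 were called in 4 of 4 fits. No result reversed its direction with a call. Calls of rising genes moved most: all histone genes rising numbered 4 with no filter, with the replicate block and with FPKM at a pseudocount of 1 or 0.1, and 2 with at least 10 counts in every library, of which 3, 3, 3, 3 and 1 were replication-dependent. H4c9 was called in 4 and H3c3 in 3 of these 10 fits. For the fits on FPKM the number of all genes that rose is not given here. With no filter 5 of 55 replication-dependent genes fell and 3 rose, where 2799 and 2862 of all 32685 genes did so. With at least 10 counts in every library 23 histone genes were tested, and 1561 of all 15242 genes rose. The median log2 fold change of variant genes was -0.69 with DESeq2 and -0.67 with no filter, both over more genes, -1.25 on log2(FPKM + 1) and -1.28 with chromosome medians removed. The log2 ratio of summed replication-dependent histones was -0.0236 on FPKM.

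No source says that the replicate numbers pair the libraries, so they were not used as pairs. Deviations of WT1 and KO1 from their group means correlated at 0.345 across genes, and 2 pairs are too few to settle the pairing. With the replicate block, 3128 genes rose and 2994 fell among all genes tested.

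With 1 library left out, between 642 and 3477 of all genes rose and between 606 and 3311 fell. Of histone genes, 0 to 3 rose and 4 to 11 fell. Of replication-dependent genes, 0 to 3 rose and 0 to 5 fell, and their median lay between -0.61 and -0.10. Of variant genes, 0 to 1 rose and 4 to 6 fell, and their median lay between -1.503 and -1.12. The log2 ratio of summed replication-dependent reads lay between -0.49 and -0.19. The lowest counts of all genes and of falling histone genes came without a KO library, where the lone KO library is assumed to vary like the WT pair. Replication-dependent genes had at most 168 reads in a library, with standard errors of 0.41 to 0.86 on the log2 scale, and log2 fold changes as far from 0 as -1.94 (H3c8) were not called.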

Other observations

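Some histone genes carry symbols outside the definition used and were looked up after values had been seen. The histone counts, shares and groups by position above leave them out. H2aj, an H2A variant gene on chromosome 6, had 386 and 654 reads in WT1 and WT2 and 1091 and 1037 reads in KO1 and KO2, and it rose (log2 fold change 1.05 ± 0.24, standard error, edgeR quasi-likelihood adjusted p = 0.0207). Beside it on chromosome 6, H4f16 was read 5 and 10 times in WT1 and WT2 against 1 and 2 times in KO1 and KO2 and was not tested. On chromosome 11, H2bu2 was read 34 and 68 times in WT1 and WT2 against 14 and 12 times in KO1 and KO2 and fell (log2 fold change -1.94 ± 0.54, standard error, edgeR quasi-likelihood adjusted p = 0.0392). H2aw, near H2bu2, was read 14 and 26 times in WT1 and WT2 against 2 and 3 times in KO1 and KO2 and was also called lower (edgeR quasi-likelihood adjusted p = 0.0224). These last 2 genes fell on a chromosome where 26.7% of the tested genes rose and 3.99% fell.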
